A study of Homo sapiens with 60 samples.

Results

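The comparison described here is between HepG2 cells given the ethanol extract of Astragali Radix, the root of Astragalus, at 500 µg/mL and the same cells given it at 100 µg/mL. HepG2 is a human hepatocellular carcinoma line that keeps much of the gene expression of hepatocytes. The members were chosen by their titles alone, as the 3 libraries labelled high dose and the 3 labelled medium dose of this extract, 6 of the 60 libraries used from the series. Both groups were exposed for 24 h, and no vehicle library entered the comparison. The study profiled such cells with the ethanol extracts of 8 herbal preparations at 3 doses each, and the 3 Astragalus libraries at 20 µg/mL and the 500 and 100 µg/mL libraries of Paeonia (2 a dose) and Cinnamon (3 a dose) serve below only to place the step from 100 to 500 µg/mL. What all groups share is a line from a single tumour, serum-containing medium and extracts made in the same way from dried plant material. DMSO stands at 0.1% in the labels of the vehicle and at 2% in the series text, and which of these the extract libraries shared is not given. The series text also describes a lower dose series for any extract whose 20% inhibitory concentration lay under 500 µg/mL, whereas the labels of these libraries give 500, 100 and 20 µg/mL. The labels do not say that replicates came from separate cultures, so p-values measure a spread between libraries that may be technical. That spread was pooled over the 57 extract libraries and not taken from the 6 compared alone. In bulk RNA, fewer cells of a type and less RNA per cell cannot be told apart.

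A cell that leaves the division cycle stops making the transcripts of DNA replication and then those of mitosis, under the control of E2F factors, of the MuvB complex that binds the CHR element of mitotic promoters, and of inhibitors of cyclin-dependent kinases such as p21. Lysosomes are the acidic compartments in which a cell degrades proteins, lipids and sugars, and TFEB and TFE3, factors held in the cytoplasm by the kinase mTORC1, switch on lysosomal and autophagy genes through the CLEAR element, built around the letters CACGTG. Stress reaches transcription through separate factors: ATF4 when translation is restrained, NRF2 on electrophilic or oxidative stress, HSF1 and the unfolded protein response when proteins misfold, and AP-1 and EGR1 after kinase signalling.

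The 6 libraries held 25244313 to 34643028 expected counts, and replicates differed by more than counting error (chi-square per degree of freedom 9.164 to 27.46 over the 6 replicate pairs). Transcripts of the mitochondrial genome took 24.1% to 26.8% of the counts at 500 µg/mL and 16.7% to 21.7% at 100 µg/mL, a difference of 6.23 percentage points (exact two-sided permutation test, p = 0.1, the smallest that 3 against 3 allows). The nuclear RNA MALAT1 took 0.113% to 0.190% of the counts at 500 µg/mL and 0.0346% to 0.0581% at 100 µg/mL. NEAT1, another nuclear RNA, overlapped between the doses, with 0.0075% to 0.0132% at 500 µg/mL and 0.0079% to 0.0112% at 100 µg/mL. In a refit without mitochondrial transcripts, 33 mitosis and 37 DNA replication genes fell and 35 lysosomal hydrolases rose, as many as with them. That refit takes these transcripts out of the counts and does not show why their share differed. The part of the MALAT1 share in the changes below was not tested. All 8 hepatoma markers were present in each library, with a summed level (in counts per 1000000, CPM) of 34537 to 43250.4 CPM before TMM scaling at 500 µg/mL and 58988 to 63546 at 100 µg/mL. The 6 fibroblast markers summed to at most 0.351, the 5 endothelial ones to at most 3.19, the 5 macrophage ones to at most 3.48 and the 5 lymphocyte ones to at most 2.34 CPM. The 4 erythroid markers summed to 7.84 to 9.41 CPM at 500 µg/mL and 0.67 to 1.605 at 100 µg/mL, most of it from HBA1. Among defining markers COL1A2, DCN, LUM, KDR, PTPRC, MARCO, CD163, CD3E, MS4A1, NKG7 and HBB were at 0 in all 6 libraries. The change from 100 to 500 µg/mL also moved with the base composition of transcripts, as described at the end.

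Of 16651 genes tested, 5368 (32.2%) rose and 4843 (29.1%) fell from 100 to 500 µg/mL at an adjusted p below 0.05, 61.3% of all genes in total. Most changes were small, and 1164 genes (6.99%) rose and 1111 (6.67%) fell by 2-fold or more. The median over all genes was a log2 change of 0.01. Counted without any test, all 3 libraries at 500 µg/mL lay above all 3 at 100 µg/mL for 5437 genes (32.7%) and below them for 4868 (29.2%). With so many genes called, a list of genes is read below against these shares, and the word rose or fell is kept for genes past the threshold. Values per library are CPM scaled by TMM, and changes are log2 fold changes ± SE of 500 against 100 µg/mL, with 3 libraries in each group.

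**Figure D1:**
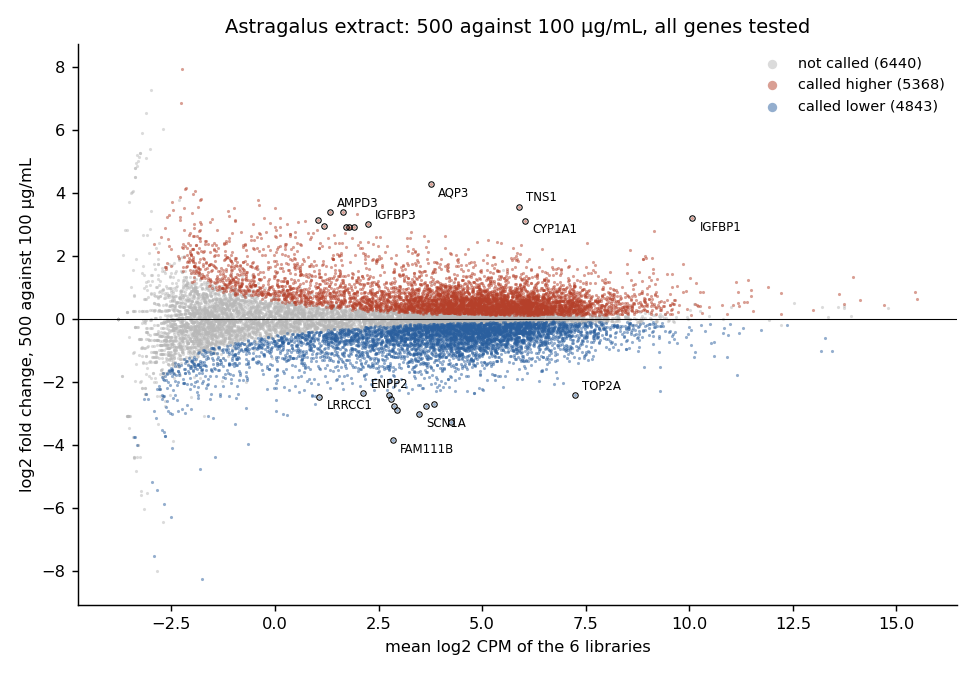
Each point is 1 of the 16651 tested genes, with its mean log2 CPM over the 6 libraries on the horizontal axis and its log2 fold change from 100 to 500 µg/mL on the vertical axis; genes past an adjusted p of 0.05 are coloured by direction. Called genes lie on both sides of 0 in near balance, 5368 above and 4843 below, and the named genes at the edges are those described in the text.

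The transcripts of cell division fell almost as a whole. Of the 34 mitosis genes tested, 33 fell, with a list median of -1.32, and of the 38 DNA replication genes 37 fell, with a median of -0.99, where 29.1% of all genes fell. The exceptions were PTTG1, the securin that guards chromatid separation, at 0.14 ± 0.08 (adjusted p = 0.101), and CDT1, a licensing factor of replication origins, at 0.14 ± 0.07 (adjusted p = 0.066), where an offset for GC content and length gave -0.29 (adjusted p = 5.71e-06). Without replicate 2 at 500 µg/mL both were called higher (PTTG1 at 0.19, adjusted p = 0.0469, and CDT1 at 0.17, adjusted p = 0.0496), and CDT1 was without replicate 3 (0.21, adjusted p = 0.0134), with RLE scaling and with DESeq2 (0.16 in both, adjusted p = 0.0459 and 0.0478). In each of the 33 mitosis genes and 37 replication genes that fell, the libraries of both doses did not overlap. The same held for 4415 of all 4843 genes that fell.

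TOP2A (ENSG00000131747, chromosome 17, 40388516 to 40417950, GRCh38), the topoisomerase that untangles sister chromatids, measured 63.2, 45.4 and 90.9 CPM at 500 µg/mL and 316, 400.4 and 365 CPM at 100 µg/mL. Every library at 500 µg/mL lay far below every one at 100 µg/mL, with replicate 3 the highest of its group. The fall was 2.43 ± 0.11 (adjusted p = 1.73e-22). MKI67 (ENSG00000148773, chromosome 10, 128096659 to 128126385), the proliferation antigen Ki-67 that coats mitotic chromosomes, measured 35.5, 49.7 and 99.3 CPM at 500 µg/mL and 224, 198 and 259 CPM at 100 µg/mL. Here too the groups stood apart while replicate 3 at 500 µg/mL was well above its fellows, and the fall of 1.87 ± 0.17 (adjusted p = 6.19e-13) carries that spread. KIF11 (ENSG00000138160, chromosome 10, 92593286 to 92655395), the kinesin that pushes spindle poles apart, measured 13.3, 11.5 and 17.96 CPM at 500 µg/mL and 62.9, 68.1 and 67.9 CPM at 100 µg/mL. Its libraries fell into 2 tight and well separated groups, and it fell by 2.20 ± 0.07 (adjusted p = 9.63e-27). NDC80, which anchors microtubules at the kinetochore, fell by 2.55 ± 0.11, HMMR, a spindle protein, by 2.30 ± 0.12, DLGAP5, which stabilises spindle microtubules, by 2.26 ± 0.10, and KIF15, a second spindle kinesin, by 2.76 ± 0.14. Replicate 3 at 500 µg/mL was also the highest of its group for NDC80 and KIF15. Leaving that library out moved KIF15 to -3.38 and raised the number of genes that fell by 2-fold or more from 1111 to 1446.

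The promoters of TOP2A and KIF11, shown because they hold it, give an example of an element found in about as many mitosis windows as lack it. The letters TTTGAA, on either strand, are the core of the CHR element. They occurred in the 250 bases before the RefSeq start in 17 of 33 promoter windows of the mitosis genes that fell (51.5%; 28 of 33 genes matched), against 13.3% of 35116 windows of all genes and 2.4% of 42 windows of the replication genes that fell (32 of 37 matched). CCAAT, the letters bound by NF-Y, occurred in 75.8% of the mitosis windows and 61.9% of the replication windows, and also in 13 of 26 windows of the NRF2 targets that rose, against 32.0% of all windows. The windows below are from RefSeq on GRCh38.p14, written 5′ to 3′ on the gene's strand, with TTTGAA or its reverse complement TTCAAA in capitals; the genes themselves fell by 2.43 and 2.20. A match describes the letters and not a bound site.
TOP2A (chr17:40417897-40418146, minus strand): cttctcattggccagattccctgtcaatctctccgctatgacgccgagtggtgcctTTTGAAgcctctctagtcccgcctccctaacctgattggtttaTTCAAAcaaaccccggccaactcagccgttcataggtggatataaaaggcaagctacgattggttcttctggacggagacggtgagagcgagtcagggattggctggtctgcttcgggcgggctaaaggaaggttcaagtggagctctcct
KIF11 (chr10:92592880-92593129, plus strand): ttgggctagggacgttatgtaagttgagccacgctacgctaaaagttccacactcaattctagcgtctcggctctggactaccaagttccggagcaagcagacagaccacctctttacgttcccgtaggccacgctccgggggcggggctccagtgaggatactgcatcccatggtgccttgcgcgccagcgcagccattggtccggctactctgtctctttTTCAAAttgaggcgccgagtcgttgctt

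Genes that make and copy DNA fell together with them. FAM111B (ENSG00000189057, chromosome 11, 59107185 to 59127410), a protease of replicating cells, had the largest fall among the genes chosen by size. It measured 1.83, 1.16 and 2.63 CPM at 500 µg/mL, 26.3, 27.3 and 30.98 CPM at 100 µg/mL and 37.2, 35.8 and 36.3 CPM at 20 µg/mL. The level was low at 500 µg/mL alone, and the fall from 100 µg/mL was 3.86 ± 0.13 (adjusted p = 7.76e-27). E2F8, a repressor of the E2F family that is itself made in S phase, measured 2.78, 2.73 and 2.73 CPM at 500 µg/mL and 20.4, 20.2 and 21.5 CPM at 100 µg/mL. Libraries of 1 dose spread little, and it fell by 2.91 ± 0.08 (adjusted p = 6.42e-29). RRM2 (ENSG00000171848, chromosome 2, 10120698 to 10131419), the regulated subunit of the reductase that supplies deoxynucleotides, measured 134, 123 and 127 CPM at 500 µg/mL, 315, 313 and 311 CPM at 100 µg/mL and 315, 321 and 315 CPM at 20 µg/mL. The 100 and 20 µg/mL libraries shared 1 level, with a difference of -0.02 ± 0.04 between them (adjusted p = 0.763), and the fall of 1.29 ± 0.04 (adjusted p = 4.46e-28) came with the top dose. MCM10 and CDC6, which activate and load the replicative helicase, fell by 2.09 ± 0.07 and 1.65 ± 0.04, MCM2, a subunit of that helicase, by 0.71 ± 0.07, UHRF1, which copies DNA methylation to the new strand, by 1.95 ± 0.07, POLA1, the catalytic subunit of the primase-polymerase, by 1.51 ± 0.06, and POLD3, a subunit of polymerase delta, by 2.43 ± 0.10.

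The regulators of the cycle moved in both directions, as did all genes, of which 32.2% rose and 29.1% fell. CDKN1A (ENSG00000124762, chromosome 6, 36676460 to 36687339), which encodes p21, measured 353, 300.4 and 286 CPM at 500 µg/mL and 167, 131 and 136 CPM at 100 µg/mL. All libraries at 500 µg/mL lay above all at 100 µg/mL, and it rose by 1.12 ± 0.08 (adjusted p = 6.54e-16). CCND1 (ENSG00000110092, chromosome 11, 69641087 to 69654474), the cyclin D that opens G1 for CDK4 and CDK6, measured 94.5, 95.4 and 91.2 CPM at 500 µg/mL and 185, 182 and 183 CPM at 100 µg/mL. The 500 µg/mL libraries were lower with almost no spread in either group, a fall of 0.97 ± 0.05 (adjusted p = 3.59e-21). Of 17 tested inhibitors of cyclin-dependent kinases and growth-arrest genes, 10 rose and 4 fell, with a list median of 0.40. Among them KLF6, a growth-restraining zinc finger factor, rose by 1.38 ± 0.05 and PPP1R15A, which also restores translation after stress, by 1.71 ± 0.07, while CDKN2C, the p18 inhibitor that proliferating cells make, fell by 1.28 ± 0.07. Of 27 tested p53 targets 14 rose and 5 fell, with a median of 0.17. GDF15, a secreted stress cytokine, rose by 1.73 ± 0.08, PLK3 by 1.73 ± 0.10 and BBC3, the pro-death BH3 protein PUMA, by 1.69 ± 0.10, while MDM2, the ligase that degrades p53, was at -0.11 ± 0.08 (adjusted p = 0.22) and XPC, a repair protein, fell by 0.63 ± 0.09. Without replicate 3 at 500 µg/mL MDM2 was called lower, at -0.21 (adjusted p = 0.0193). Of 15 mitogenic genes and G1 cyclins 10 rose and 4 fell, among them the EGF receptor ligands HBEGF and AREG, which rose by 1.23 ± 0.12 and 1.12 ± 0.15; with an offset for GC content and length 6 of the 15 rose.

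Genes for making ribosomes divided in a different way. Of 28 ribosome biogenesis genes 15 fell and 10 rose, with a median of -0.17, where 29.1% of all genes fell and 32.2% rose. LYAR and GNL3, nucleolar proteins of dividing cells, fell by 2.04 ± 0.10 and 1.40 ± 0.08, NOP58, a core protein of the box C/D particles that methylate ribosomal RNA, by 1.95 ± 0.10, and NCL, the nucleolin of the nucleolus, by 1.54 ± 0.08. Of the 66 cytosolic ribosomal proteins 32 rose and 8 fell, with a median of 0.23. With the offset for GC content and length 25 rose and 12 fell, with a median of 0.11.

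**Figure D2:**
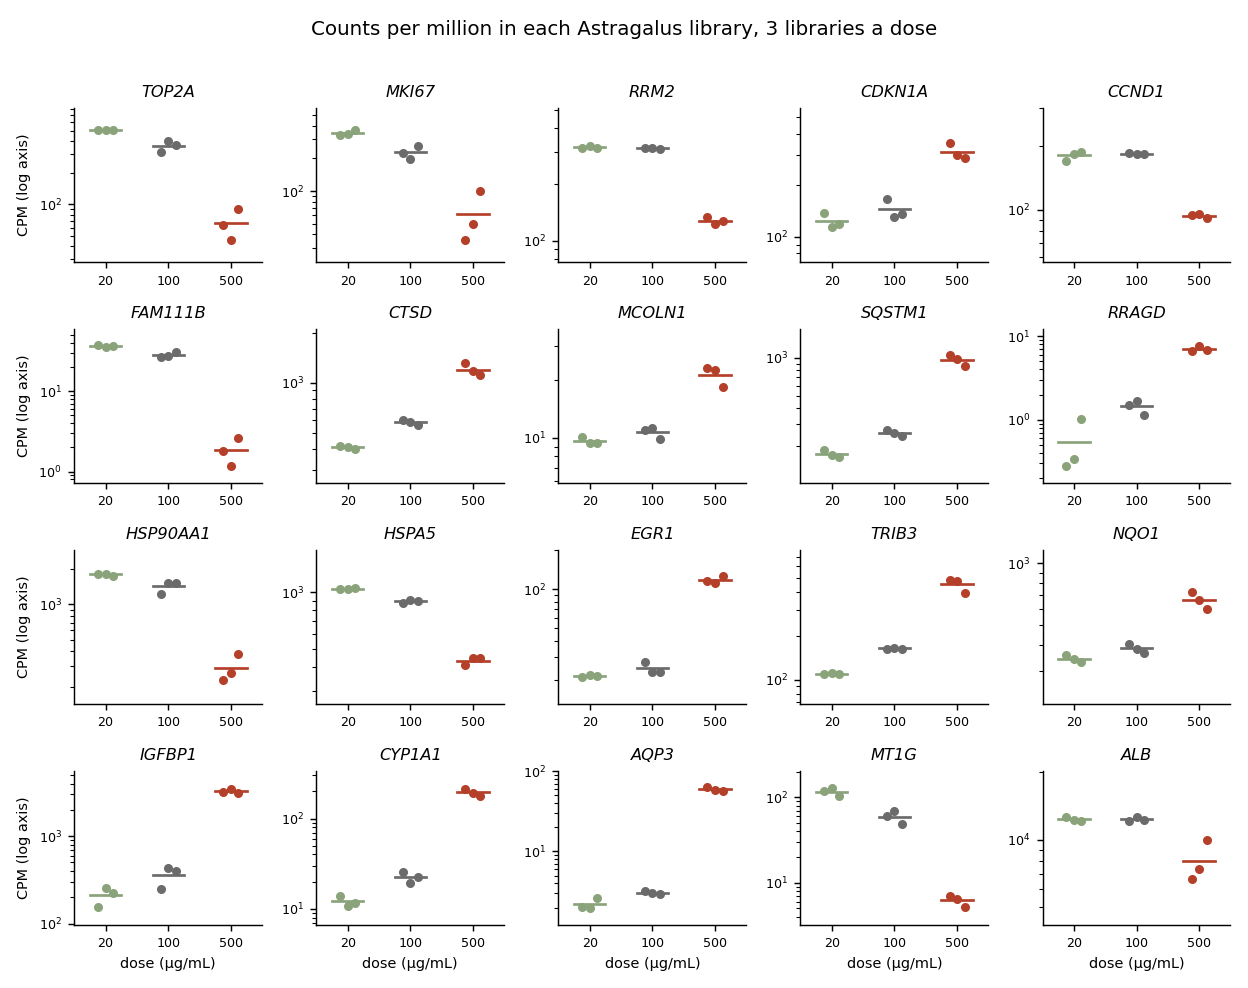
Values of the genes described in the text in each Astragalus library, in CPM on a log axis against the dose in µg/mL; each point is 1 library and the bars are group means. For TOP2A, MKI67, RRM2, FAM111B, CCND1, HSP90AA1, HSPA5, MT1G and ALB the 3 libraries at 500 µg/mL lie below those at 100 µg/mL, and for the other genes shown they lie above.

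Lysosomal genes rose broadly, most of them by less than 2-fold. Of 46 tested hydrolases and activators 35 rose and 4 fell, with a median of 0.34, of 26 membrane proteins 24 rose and 2 fell, with a median of 0.51, and of 18 subunits of the V-ATPase, the proton pump that acidifies the lysosome, 13 rose and 1 fell, with a median of 0.56, where 32.2% of all genes rose. With an offset for GC content and length 23 of the 46 hydrolases rose; the median GC content of that list was 52.6%.

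CTSD (ENSG00000117984, chromosome 11, 1752752 to 1764573), the aspartic protease cathepsin D, measured 1322, 1171 and 1118 CPM at 500 µg/mL, 599, 582 and 559 CPM at 100 µg/mL and 414, 411 and 399 CPM at 20 µg/mL. The 3 doses formed 3 separate levels in order of dose, and the step from 100 to 500 µg/mL was a rise of 1.05 ± 0.05 (adjusted p = 1.06e-21) after one of 0.51 ± 0.05 from 20 to 100 µg/mL (adjusted p = 7.66e-11). MCOLN1 (ENSG00000090674, chromosome 19, 7522626 to 7534009), the calcium channel of the lysosomal membrane through which lysosomes signal to TFEB, measured 22.9, 22.5 and 18.4 CPM at 500 µg/mL, 10.97, 11.2 and 9.82 CPM at 100 µg/mL and 10.1, 9.42 and 9.35 CPM at 20 µg/mL. Between 20 and 100 µg/mL the libraries lay close together (0.15 ± 0.08, adjusted p = 0.177), and at 500 µg/mL each was clearly higher, a rise of 0.99 ± 0.08 (adjusted p = 1.21e-14). LAMP1, the main glycoprotein of the lysosomal membrane, measured 382, 386 and 363 CPM at 500 µg/mL and 262, 248 and 249 CPM at 100 µg/mL. Its groups stood apart with little spread, and it rose by 0.57 ± 0.04 (adjusted p = 2.24e-15). Among the hydrolases IDS, which removes sulphate from heparan sulphate, rose by 1.55 ± 0.07, CTSB, the cysteine protease cathepsin B, by 1.32 ± 0.04 and GBE1, the glycogen branching enzyme, which is cytosolic but stood in the list, by 1.14 ± 0.08, while CTSV, a cathepsin close to cathepsin L, fell by 0.81 ± 0.12. Among the membrane proteins CD63, a tetraspanin of late endosomes, rose by 1.48 ± 0.08 and ATP13A2, a polyamine transporter, by 1.23 ± 0.06. CD68, a lysosomal glycoprotein best known from macrophages, rose by 1.18 ± 0.13 and SLC17A5, the sialic acid exporter, by 0.99 ± 0.07. Of the macrophage markers PTPRC, MARCO and CD163 were at 0 and CSF1R reached at most 0.072 CPM before TMM scaling. CD14, the other macrophage marker, lay at 0.792 to 1.08 CPM at 500 µg/mL and 3.21 to 3.45 at 100 µg/mL. NPC1, which moves cholesterol out of the lysosome, rose by 0.93 ± 0.05. Of the pump's membrane sector ATP6V0B, ATP6V0E1, ATP6V0A1 and ATP6V0D1 rose by 1.14 ± 0.10, 0.95 ± 0.07, 0.85 ± 0.05 and 0.84 ± 0.06. GPNMB, a glycoprotein that loaded lysosomes make, reached 0.42 ± 0.17 (adjusted p = 0.036), a call that 8 of 15 alternative settings did not keep.

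The promoters of MCOLN1 and CTSD, again shown because they hold it, carry the CLEAR core. CACGTG, a palindrome that reads the same on both strands and also forms other E-box sites, occurred in 16 of 72 windows of the hydrolase, membrane and V-ATPase genes that rose (22.2%; 50 of 72 genes matched), against 6.3% of all windows, 15.2% of the mitosis windows and 3.8% of 26 windows of the NRF2 targets that rose. TTTGAA occurred in none of the 72 windows. No share was taken for the list members that did not rise, so these shares describe the list and cannot tie the letters to the dose. The same kind of window is shown for the genes just described, which rose by 0.99 and 1.05, with CACGTG in capitals.
MCOLN1 (chr19:7522374-7522623, plus strand): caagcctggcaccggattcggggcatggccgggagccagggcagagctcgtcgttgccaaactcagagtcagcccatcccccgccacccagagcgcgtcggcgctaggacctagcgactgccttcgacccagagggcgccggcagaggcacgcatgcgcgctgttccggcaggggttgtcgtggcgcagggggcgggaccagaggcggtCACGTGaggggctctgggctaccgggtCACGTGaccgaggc
CTSD (chr11:1763928-1764177, minus strand): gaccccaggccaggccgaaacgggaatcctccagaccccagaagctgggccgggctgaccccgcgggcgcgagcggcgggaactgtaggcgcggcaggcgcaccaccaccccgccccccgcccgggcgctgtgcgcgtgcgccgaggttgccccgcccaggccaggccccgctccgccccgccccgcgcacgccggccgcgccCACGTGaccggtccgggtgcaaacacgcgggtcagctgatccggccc

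Autophagy genes rose as well, with 26 of 38 higher, 6 lower and a median of 0.65. SQSTM1 (ENSG00000161011, chromosome 5, 179806398 to 179838078), the cargo receptor p62 that is also an NRF2 target, measured 1062, 985 and 856 CPM at 500 µg/mL, 268, 254 and 240.2 CPM at 100 µg/mL and 184, 168 and 163 CPM at 20 µg/mL. Each dose formed a level of its own and the top dose was set far above the others, a rise of 1.93 ± 0.06 (adjusted p = 3.13e-27). GABARAPL1, which coats the autophagosome, rose by 1.69 ± 0.07, DEPP1, a FOXO target that promotes autophagy, by 1.82 ± 0.14, ATG2A, which feeds lipid into the growing membrane, by 1.46 ± 0.06 and MAP1LC3B, the marker LC3B, by 0.99 ± 0.05; reads of MAP1LC3B and its near copy MAP1LC3B2 may be shared. TAX1BP1, another cargo receptor, fell by 1.28 ± 0.10. Of 27 genes of the TFEB family and of mTORC1 control 14 rose and 8 fell, with a median of 0.33, where 32.2% of all genes rose and 29.1% fell. RRAGD, the Rag GTPase that TFEB induces, measured 6.57, 7.597 and 6.86 CPM at 500 µg/mL and 1.49, 1.69 and 1.14 CPM at 100 µg/mL, low levels that nonetheless did not overlap, and it rose by 2.27 ± 0.24 (adjusted p = 3.41e-11). RRAGA, DDIT4 and SESN2, which report nutrient state or restrain mTORC1, rose by 0.97 ± 0.05, 0.97 ± 0.11 and 1.18 ± 0.07. The transcript of TFE3 rose by 0.80 ± 0.05 and that of TFEB fell by 0.26 ± 0.09 (adjusted p = 0.00791), although its libraries overlapped between the doses and the call was lost without replicate 3 at 500 µg/mL (adjusted p = 0.078) or replicate 1 at 100 µg/mL (adjusted p = 0.06).

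Stress genes moved in both directions, list by list. The immediate early genes were the most one-sided of the stress lists: 22 of 23 rose, with a median of 1.76, and the other, KLF10, was at 0.04 ± 0.10 (adjusted p = 0.773). EGR1 (ENSG00000120738, chromosome 5, 138465490 to 138469315), a zinc finger factor made within minutes of kinase signalling, measured 115, 111 and 126 CPM at 500 µg/mL, 27.8, 23.03 and 22.9 CPM at 100 µg/mL and 21.04, 21.8 and 21.5 CPM at 20 µg/mL. The 100 and 20 µg/mL libraries lay at neighbouring levels (0.20 ± 0.10, adjusted p = 0.138) and those at 500 µg/mL far above, a rise of 2.26 ± 0.09 (adjusted p = 1.52e-23). FOS, a subunit of AP-1, measured 9.77, 10.7 and 9.35 CPM at 500 µg/mL and 1.49, 1.27 and 1.22 CPM at 100 µg/mL. The libraries were separated at low counts, and the rise was 2.90 ± 0.14 (adjusted p = 2.81e-21). JUNB, its partner, rose by 2.04 ± 0.09 and ZFP36, which destabilises cytokine messages, by 2.22 ± 0.11. Of 12 genes of ERK feedback 7 rose and 1 fell. The phosphatases DUSP1 and DUSP5, which switch MAP kinases off, rose by 2.44 ± 0.07 and 2.29 ± 0.13, and the inhibitor SPRY4 by 1.02 ± 0.06. Of 15 NF-kappaB targets and cytokines 12 rose and 3 were not called, with a median of 1.04: IL11 and LIF, cytokines of the IL-6 family, rose by 2.39 ± 0.18 and 1.59 ± 0.07, and RELB and NFKB2, the pair of the non-canonical branch, by 2.14 ± 0.11 and 1.56 ± 0.07.

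ATF4 targets rose in 25 of 34 and fell in 5, with a median of 0.34. With the offset for GC content and length 20 rose and 4 fell, with a median of 0.17. TRIB3 (ENSG00000101255, chromosome 20, 362835 to 397559), a pseudokinase that feeds back on ATF4, measured 487, 478 and 394 CPM at 500 µg/mL, 162, 166 and 164 CPM at 100 µg/mL and 109, 111 and 110.2 CPM at 20 µg/mL. The levels followed dose without overlap, and the top step was a rise of 1.47 ± 0.08 (adjusted p = 4.36e-20). ATF3 and CEBPB, transcription factors downstream of ATF4, rose by 1.77 ± 0.11 and 1.28 ± 0.14, and ASNS, asparagine synthetase, by 0.68 ± 0.05. DDIT3, which encodes the pro-death factor CHOP, measured 7.72, 9.496 and 10.8 CPM at 500 µg/mL and 9.14, 8.296 and 8.12 CPM at 100 µg/mL. Its libraries overlapped and its change was 0.14 ± 0.10 (adjusted p = 0.239); without replicate 1 at 500 µg/mL it reached 0.25 with an adjusted p of 0.0353.

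Chaperones went the other way. Of 23 ER chaperones and genes of the unfolded protein response 15 fell and 4 rose, with a median of -0.35. HSPA5 (ENSG00000044574, chromosome 9, 125234853 to 125241330), the ER chaperone BiP and the usual marker of that response, measured 409, 445 and 445 CPM at 500 µg/mL, 869.8, 912 and 900.0 CPM at 100 µg/mL and 1036, 1039 and 1047 CPM at 20 µg/mL. The 500 µg/mL libraries lay well below all others, a fall of 1.05 ± 0.04 (adjusted p = 2.08e-23). HSP90B1, the ER form of HSP90, fell by 1.53 ± 0.08 and PDIA4, a disulphide isomerase, by 0.71 ± 0.03, while EDEM1, which sends misfolded glycoproteins to degradation, rose by 0.70 ± 0.10. Of 21 heat shock chaperones 16 fell and 2 rose, with a median of -0.51. HSP90AA1 (ENSG00000080824, chromosome 14, 102080738 to 102139699), the inducible cytosolic HSP90, measured 230.2, 261 and 379 CPM at 500 µg/mL and 1216, 1518 and 1523 CPM at 100 µg/mL. No library at 500 µg/mL came near the 100 µg/mL range, and it fell by 2.29 ± 0.09 (adjusted p = 1.23e-24). HSPH1, HSPA4L and HSPA8, which refold or release proteins in the cytosol, fell by 1.58 ± 0.08, 1.48 ± 0.07 and 1.21 ± 0.05. HSPA1A fell by 0.50 ± 0.10 and may share reads with HSPA1B. The small chaperone CRYAB was an exception and rose by 2.22 ± 0.28.

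NRF2 targets rose in 26 of 30 and fell in 1, with a median of 0.74. NQO1 (ENSG00000181019, chromosome 16, 69706996 to 69726951), the quinone reductase, measured 728, 665 and 603 CPM at 500 µg/mL and 408, 383 and 368 CPM at 100 µg/mL. The groups stood well apart and it rose by 0.78 ± 0.06 (adjusted p = 4.23e-15). HMOX1, which breaks down haem, rose by 0.53 ± 0.06, FTH1, the ferritin heavy chain, by 1.01 ± 0.08 and AKR1B10, a carbonyl reductase, by 1.11 ± 0.07; AKR1C1 and AKR1C2 rose by 1.91 ± 0.06 and 1.12 ± 0.07 and are near-identical genes whose reads may be split. The letters TGACNNNGC, the antioxidant response core, occurred on either strand in 6 of 26 windows of the targets that rose (23.1%; 20 of 26 genes matched), against 10.9% of all windows 23.6% of the lysosomal windows and 21.4% of the replication windows. CACGTGAC holds the first letters of that motif, so matches of both can overlap. Of the 9 metallothioneins, which bind zinc and copper, 4 fell and 5 were not called, with a median of -1.07. From 20 to 100 µg/mL 8 had already fallen, with a median of -0.69. With Paeonia 5 fell from 100 to 500 µg/mL, with a median of -1.05. MT1G (ENSG00000125144, chromosome 16, 56666731 to 56668065) measured 7.03, 6.39 and 5.15 CPM at 500 µg/mL, 59.8, 68.5 and 49.04 CPM at 100 µg/mL and 120.0, 129 and 103 CPM at 20 µg/mL. The levels dropped at each dose without overlap, and the fall from 100 to 500 µg/mL was 3.27 ± 0.22 (adjusted p = 5.47e-17). MT1F fell by 2.77 ± 0.18, and reads of this family of near copies may be shared. Of 22 apoptosis regulators 14 rose and 4 fell, with a median of 0.40, and they included the survival protein MCL1, which rose by 1.17 ± 0.06, beside the death effectors BAK1 and BMF, which rose by 1.02 ± 0.06 and 1.00 ± 0.07.

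Genes of oxygen and sugar metabolism formed another one-sided set. Of 22 hypoxia targets 21 rose, with a median of 0.86, and KDM3A was at 0.12 ± 0.08 (adjusted p = 0.221), or 0.20 (adjusted p = 0.0466) without replicate 1 at 500 µg/mL. ADM, the vasodilator peptide adrenomedullin, rose by 2.61 ± 0.10, NDRG1, a growth-arrest protein, by 2.39 ± 0.19, CA9, a surface carbonic anhydrase, by 2.15 ± 0.17 and EGLN3, the hydroxylase that marks HIF for degradation, by 1.91 ± 0.20. Of 18 glycolysis genes 15 rose and 1 fell, with a median of 0.91. HK1 (ENSG00000156515, chromosome 10, 69269984 to 69401884), a hexokinase of high glucose affinity, measured 7.99, 10.8 and 9.0 CPM at 500 µg/mL and 0.914, 1.496 and 1.26 CPM at 100 µg/mL. It was scarce in every 100 µg/mL library and rose by 2.92 ± 0.22 (adjusted p = 5.05e-15). ENO2, ALDOA and ALDOC, enzymes of the lower and middle pathway, rose by 1.82 ± 0.09, 1.23 ± 0.06 and 1.16 ± 0.08, and PFKFB3, which makes the activator of phosphofructokinase, by 1.38 ± 0.17. PKLR, the pyruvate kinase of liver and red cells, fell by 0.77 ± 0.09.

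IGFBP1 (ENSG00000146678, chromosome 7, 45888357 to 45893668), a secreted protein that binds insulin-like growth factors and that liver cells make when insulin signalling is low, measured 3235, 3503 and 3131 CPM at 500 µg/mL, 251, 432 and 404 CPM at 100 µg/mL and 156, 257 and 226 CPM at 20 µg/mL. No library of the lower doses came near those at 500 µg/mL, although replicate 1 at 100 µg/mL lay below its fellows, and it rose by 3.18 ± 0.19 (adjusted p = 1.17e-18). Of 7 IGF binding proteins 5 rose and 2 were not called; IGFBP3, IGFBP4 and IGFBP2 rose by 3.00 ± 0.18, 0.98 ± 0.09 and 0.90 ± 0.08. Of 19 gluconeogenic and FOXO target genes 13 rose and 2 fell, among them PCK1 and PC, the enzymes that turn pyruvate towards glucose, which rose by 1.67 ± 0.09 and 1.44 ± 0.06. Lipid genes were mixed, as were all genes, of which 32.2% rose and 29.1% fell. Of 23 cholesterol genes 9 rose and 5 fell, with a median of 0.04: DHCR7, an enzyme of the last steps of synthesis, rose by 0.73 ± 0.06, whereas HMGCS1, an early enzyme, fell by 0.39 ± 0.05, a fall of which 0.01 was left (adjusted p = 0.922) under the offset for GC content and length. Of 18 genes of fatty acid and triglyceride synthesis 6 rose and 8 fell. AGPAT2 and LPIN1, which build triglyceride, rose by 2.11 ± 0.15 and 0.91 ± 0.07, and GPAM, which starts it, and the elongase ELOVL6 fell by 1.97 ± 0.06 and 1.02 ± 0.06. Of 22 PPARA and fatty acid oxidation genes 9 rose and 7 fell. The lipid droplet protein PLIN2 rose by 1.57 ± 0.08, the carnitine transferase CPT1A by 1.49 ± 0.07, VNN1 by 1.89 ± 0.12 and ANGPTL4 by 1.46 ± 0.10.

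CYP1A1 (ENSG00000140465, chromosome 15, 74719542 to 74725610), the oxidase that the aryl hydrocarbon receptor induces, measured 212, 191 and 179.9 CPM at 500 µg/mL, 25.6, 19.3 and 22.6 CPM at 100 µg/mL and 13.96, 10.7 and 11.6 CPM at 20 µg/mL. The doses were ordered without overlap, and the rise from 100 to 500 µg/mL was 3.11 ± 0.10 (adjusted p = 5.09e-27). Of 7 AhR targets 3 rose and 4 were not called, where 32.2% of all genes rose. With the offset for GC content and length 5 rose and 1 fell. AHRR, the receptor's repressor, rose by 1.27 ± 0.24 (adjusted p = 1.92e-05) at about 1 CPM. The 12 targets of PXR and CAR moved in both directions, as all genes did, 5 each (3 rose in a fit of the 6 libraries alone). The electron donor POR rose by 0.93 ± 0.05, and the transferases SULT2A1 and GSTA1 fell by 0.99 ± 0.05 and 1.11 ± 0.09. GSTA1 may share reads with GSTA2.

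Secreted liver proteins leaned to falls. Of 28 tested 15 fell and 4 rose, with a median of -0.21, where 29.1% of all genes fell and 32.2% rose. With the offset for GC content and length 21 fell and 2 rose, with a median of -0.32. ALB (ENSG00000163631, chromosome 4, 73397114 to 73421412), serum albumin, measured 6690.1, 7368 and 9908 CPM at 500 µg/mL and 12130.0, 12664 and 12240.0 CPM at 100 µg/mL. The groups did not overlap, replicate 3 at 500 µg/mL lay nearest to the lower dose, and the fall was 0.63 ± 0.07 (adjusted p = 6.93e-10). AFP, the fetal albumin that hepatoma cells keep, fell by 1.04 ± 0.06, KNG1, a kininogen, by 1.65 ± 0.10 and the fibrinogen chains FGA and FGG by 1.22 ± 0.04 and 1.20 ± 0.05, while the fetuin AHSG rose by 0.53 ± 0.06. Of 16 apolipoprotein genes 6 rose and 7 fell: APOA4 rose by 2.57 ± 0.13 and the HDL receptor SCARB1 by 0.77 ± 0.05, and APOB, the scaffold of VLDL, and the exporter ABCA1 fell by 1.03 ± 0.11 and 0.80 ± 0.06. Of 17 hepatocyte transcription factors 7 rose and 7 fell, with the bile acid receptor NR1H4 falling by 1.48 ± 0.06, its target NR0B2 rising by 1.07 ± 0.07 and the pioneer factor FOXA1 falling by 1.27 ± 0.07.

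Energy and structural genes completed the lists, and stand beside the 32.2% of all genes that rose and the 29.1% that fell. Of 49 nuclear subunits of oxidative phosphorylation 31 rose and 4 fell, with a median of 0.26, and of the 13 mitochondrially encoded proteins 5 rose, with a median of 0.44; this count was 3 without replicate 2 and 9 without replicate 1 at 100 µg/mL, 12 with the offset for GC content and length, and 13 with no filter on low counts. Of 20 cytoskeleton and adhesion genes 14 rose and 3 fell. The collagen receptor ITGA2 rose by 1.68 ± 0.08 and the tubulins TUBB6 and TUBB2B by 1.96 ± 0.06 and 1.76 ± 0.11, of which TUBB2B has the near copy TUBB2A. Of 17 YAP and TGF-beta targets 7 rose and 7 fell: the matricellular CCN1 rose by 1.52 ± 0.09, and its relative CCN2 and the iron hormone HAMP, which BMP signals induce, fell by 1.01 ± 0.07 and 2.03 ± 0.25; with the offset 4 rose.

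Some of the largest changes belonged to no list. AQP3 (ENSG00000165272, chromosome 9, 33441154 to 33447633), a channel for water and glycerol, measured 63.3, 57.7 and 57.1 CPM at 500 µg/mL, 3.18, 3.06 and 2.92 CPM at 100 µg/mL and 2.04, 1.97 and 2.61 CPM at 20 µg/mL. Low at both lower doses, with a rise of 0.48 ± 0.13 between them (adjusted p = 0.00465), it stood far higher in every 500 µg/mL library, a rise of 4.28 ± 0.10 (adjusted p = 4.80e-31) and the largest among the genes named by size. TNS1 (ENSG00000079308, chromosome 2, 217799588 to 218033982), a tensin that links integrins to actin, measured 199.6, 209 and 213 CPM at 500 µg/mL and 9.92, 21.9 and 21.1 CPM at 100 µg/mL. Replicate 1 at 100 µg/mL was lower than its fellows, a gap small beside the distance between the doses, and the rise was 3.56 ± 0.24 (adjusted p = 7.87e-17). AMPD3, an AMP deaminase, MMP3, a matrix protease, TM4SF19, a tetraspanin-like membrane protein, and PAQR5, a membrane progestin receptor, rose from at most 1.25 CPM at 100 µg/mL by 3.37 ± 0.20, 3.12 ± 0.20, 2.96 ± 0.24 and 2.92 ± 0.19. HBA1, an alpha globin gene with the near-identical copy HBA2, rose by 3.38 ± 0.21 while HBB was at 0. SCN1A (ENSG00000144285, chromosome 2, 165984641 to 166149214), a neuronal sodium channel that HepG2 cells transcribe, measured 3.24, 3.34 and 5.04 CPM at 500 µg/mL, 28.6, 34.9 and 33.1 CPM at 100 µg/mL and 64.6, 71.3 and 71.03 CPM at 20 µg/mL. Its levels dropped with dose without overlap, by 3.02 ± 0.10 at the top step (adjusted p = 1.49e-26). DGKK, a diacylglycerol kinase, fell by 2.69 ± 0.07, LRRCC1, a centrosome protein, by 2.48 ± 0.24 (3.14 without replicate 3 at 500 µg/mL) and ENPP2, the autotaxin that makes lysophosphatidic acid, by 2.37 ± 0.11.

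What the top dose adds can be read beside the step before it. From 20 to 100 µg/mL, also a 5-fold step, 2036 genes (12.2%) rose and 2629 (15.8%) fell. Both steps share the 100 µg/mL libraries, so they are set side by side and their difference was tested gene by gene within the model, where 3587 genes (21.5%) had a higher and 3244 (19.5%) a lower change at the top step. Mitosis genes fell in 26 of 34 at the lower step, with a median of -0.27 beside -1.32 at the top step, and 28 of them had a more negative change at the top step. Replication genes fell in 18 of 38, with medians of -0.13 and -0.99, and 31 differed. Immediate early genes rose in 8 of 23, with medians of 0.12 and 1.76, and 19 differed. NF-kappaB genes rose in 2 and fell in 2 of 15, with medians of -0.01 and 1.04, and 12 differed. For these lists the larger change was at the top step.

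The hydrolases and ATF4 targets had much of their rise at the lower step already. Hydrolases rose in 29 of 46 already from 20 to 100 µg/mL, with medians of 0.21 and 0.34 at the lower and the top step, and the top step was larger in 12 and smaller in 8 of them. ATF4 targets rose in 22 of 34 at the lower step, with medians of 0.27 and 0.34, and 10 had a larger and 8 a smaller change at the top step. ASNS is the plain case, with 0.60 ± 0.05 and 0.68 ± 0.05 and a difference of 0.08 ± 0.09 (adjusted p = 0.554). Other lysosomal lists also rose at the lower step and had larger medians at the top. V-ATPase subunits rose in 15 of 18 at the lower step and 13 at the top, with medians of 0.29 and 0.56, and the top step was larger in 8 and smaller in 3. Membrane proteins rose in 17 of 26 at the lower step, with medians of 0.28 and 0.51, and 12 were larger and 2 smaller. Autophagy genes rose in 14 and fell in 5 of 38 at the lower step, with medians of 0.12 and 0.65, and 20 were larger and 4 smaller. Cholesterol genes rose in 16 of 23 at the lower step with a median of 0.23, and in 9 at the top step, where 9 had a more negative change. By single genes, the top step exceeded the lower by 3.80 ± 0.21 in AQP3, 3.32 ± 0.41 in AMPD3, 3.31 ± 0.43 in HBA1 and 3.04 ± 0.44 in TNS1, and was more negative by 3.49 ± 0.18 in FAM111B, 2.57 ± 0.12 in E2F8 and 2.42 ± 0.10 in DGKK.

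**Figure D3:**
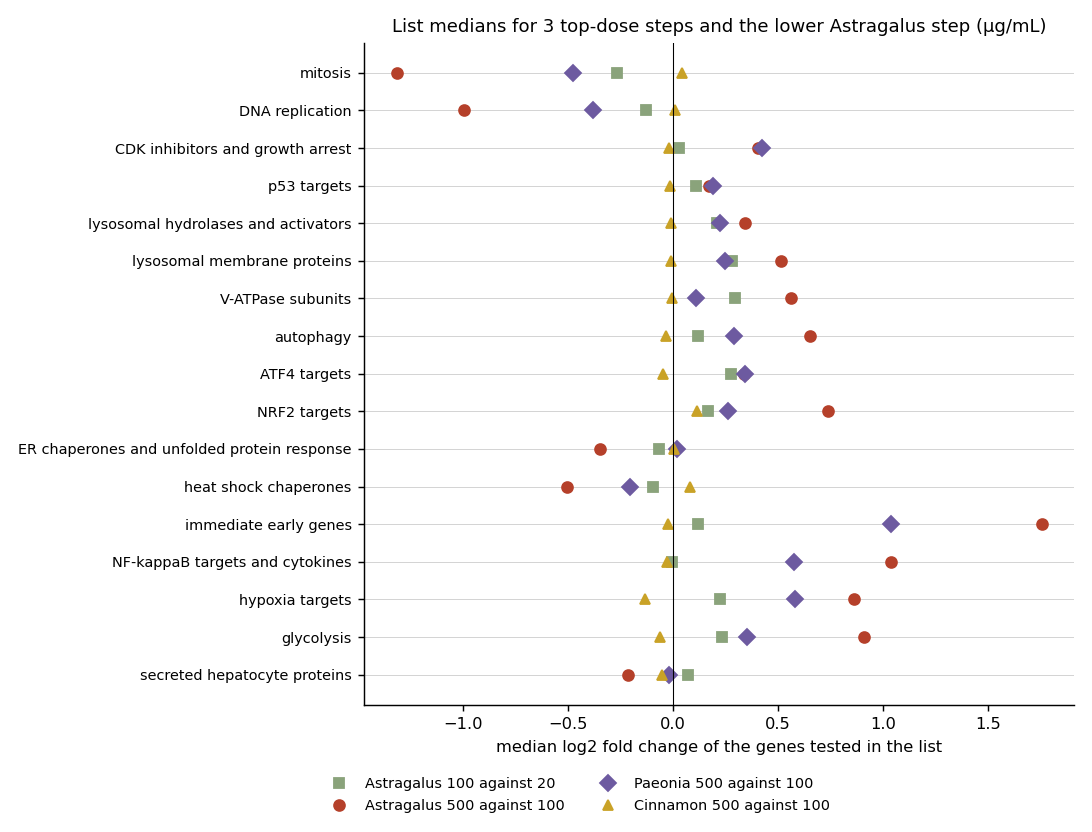
For selected lists, the median log2 fold change of the tested members in the Astragalus steps from 20 to 100 and from 100 to 500 µg/mL and in the Paeonia and Cinnamon steps from 100 to 500 µg/mL. The mitosis median is -1.32 at the top Astragalus step against -0.27 at the step before, and the Cinnamon medians lie near 0.

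The same step of other extracts gives a further scale. From 100 to 500 µg/mL Cinnamon changed few genes, with 6 (0.036%) higher and 18 (0.108%) lower, and 4 to 9 and 11 to 30 with each of its 6 libraries left out in turn, the most without replicate 1 at 100 µg/mL. Paeonia, measured in 2 libraries a dose, had 2553 (15.3%) higher and 2232 (13.4%) lower, or 1821 and 1440 without replicate 3 at 500 µg/mL. The Astragalus step was higher than that of Paeonia in 3454 genes (20.7%) and lower in 3502 (21%), and than that of Cinnamon higher in 4506 (27.1%) and lower in 4143 (24.9%). Mitosis genes fell in 31 of 34 with Paeonia too, with a median of -0.48, and the Astragalus change was lower in 26. Replication genes fell in 32 of 38 with Paeonia, with a median of -0.38, and the Astragalus change was lower in 27. RRM2 was not among those that fell, at -0.03 ± 0.05 with Paeonia (adjusted p = 0.702) and a difference of -1.26 ± 0.06 (adjusted p = 1.05e-19). Of the 17 CDK inhibitors and growth-arrest genes 10 rose and 2 fell with Paeonia, with a median of 0.42 beside 0.40 with Astragalus. The Astragalus change was higher in 4 of them and lower in 4. Of the 27 p53 targets 9 rose and 2 fell with Paeonia, with a median of 0.19, and the Astragalus change was higher in 10 and lower in 5. Immediate early genes rose in 20 of 23 with Paeonia and ATF4 targets in 22 of 34, with medians of 1.04 and 0.34. GDF15 rose by 1.73 ± 0.10 with Paeonia, and the extracts differed by 0.01 ± 0.12 (adjusted p = 0.971). IGFBP3 rose by 3.12 ± 0.21 with Paeonia, and the difference was -0.12 ± 0.29 (adjusted p = 0.782). Lysosomal lists rose with Paeonia too: hydrolases in 24 of 46, with a median of 0.23, membrane proteins in 13 of 26 (0.25) and autophagy genes in 20 of 38 (0.29), against 15.3% of all genes, and the Astragalus change was higher in 17, 13 and 18 of them and lower in 6, 1 and 6. V-ATPase subunits rose in 4 of 18 with Paeonia, with a median of 0.11, and the Astragalus change was higher in 11 and lower in 1. SQSTM1 rose by 0.61 ± 0.07, less than with Astragalus by 1.32 ± 0.10 (adjusted p = 1.78e-14).

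The change also followed the GC content of the transcript. In the decile of genes with the lowest GC content, 26.7% to 38.8%, the median change from 100 to 500 µg/mL was -0.40 and 55.3% fell, and in the decile with the highest, 61.9% to 75.8%, it was 0.47 and 61.6% rose. Each 500 µg/mL library showed it, with medians of -0.38, -0.32 and -0.21 in the lowest and 0.48, 0.40 and 0.32 in the highest decile for replicates 1 to 3. Over the deciles the medians of the step from 20 to 100 µg/mL ran only from -0.04 to 0.03, of Paeonia from -0.04 to 0.06 and of Cinnamon from -0.01 to 0.01. Transcript length moved with it, from a median of 0.11 in the shortest decile to -0.14 in the longest. Mitosis genes had a median GC content of 43.2%, hydrolases of 52.6% and immediate early genes of 56.7%. With an offset for GC content and length, 7256 of the 10211 called genes were called in the same direction and 360 in the opposite one. The mitosis list then had a median of -1.18 with 33 lower, hydrolases 0.24 with 23 higher and 8 lower, and immediate early genes 1.55 with 21 higher. Such an offset removes any change that runs with base composition, whatever its source, and the source was not tested.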

How the data were processed

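Per the submitters' processing notes, the tools for the reads of these directional MGI libraries were FastQC 0.11.9, the trimmer Trim Galore 0.6.5, the aligner STAR 2.7.3a, and the quantifier RSEM 1.3.3, with the GRCh38 build; the annotation release is not given in the sources used here. The authors deposited RSEM expected counts per Ensembl gene, of which 8.21% were not whole (tolerance 1e-09). Of 270 columns 60 were used and 210 were not. Names and positions come from GENCODE 29, and GC content and length from its transcripts.

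Expected counts were rounded and fitted in edgeR 4.0.16 under R 4.3.3 (limma 3.58.1): 57 extract libraries in 24 groups of extract and dose, filterByExpr (16651 genes), TMM factors of 0.7876 to 1.104 and the quasi-likelihood test with 33 residual degrees of freedom, so that all groups share an estimate of the spread (common coefficient of variation 0.061). In a fit of the 6 libraries alone the coefficient was 0.0858, above the pooled value. By the same test, adjusted p-values there were 1.2e-08 for AQP3 and 9.54e-07 for IGFBP1, in place of 4.8e-31 and 1.17e-18. Two-sided p-values were adjusted by Benjamini-Hochberg over all genes of a contrast, and an adjusted p below 0.05 made a call. The fit was tested on simulated data first. Alternatives were DESeq2 1.42.0, RLE scaling, no filter, other sets of libraries, no mitochondrial transcripts, a replicate block, each library left out, and an offset for GC content and length that was chosen after seeing the data.

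Genes named are the 12 largest rises and falls whose 2 sets of libraries did not overlap and whose higher dose group averaged 5 CPM or more, a panel of 29 genes, up to 4 called members of each of 37 lists under the same minimum, and the 5 largest step differences each way; further list members were named after their values were seen, and some genes the rule names are not reported here. Members and lists were chosen with earlier results of these data known, and no list was tested as a set. The promoter motifs were searched in RefSeq windows of GRCh38.p14. In each list, shares were taken only for the members that rose or only for those that fell. Such shares describe the chosen lists and cannot tie a motif to the dose.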

Additional observations from a re-analysis of the deposited data

Results flagged for a closer look

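The change from 100 to 500 µg/mL differed between Astragalus and the 2 other extracts by a test of the difference itself, which shares the Astragalus libraries in every value below. Against Paeonia (2 libraries a dose) 3454 genes had a higher and 3502 a lower change with Astragalus, and against Cinnamon 4506 and 4143.

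Among genes of division, the Astragalus change was below that of Paeonia in FAM111B by a log2 difference of -3.35, E2F8 (-2.38), TOP2A (-1.77), RRM2 (-1.26), MKI67 (-1.23) and CCND1 (-0.83), and above it in CDKN1A (0.35). Over the 17 CDK inhibitors and growth-arrest genes the Astragalus change was higher in 4 and lower in 4. Among lysosomal and autophagy genes it was higher in RRAGD (1.44), SQSTM1 (1.32), MCOLN1 (0.74), CTSD (0.71) and LAMP1 (0.41). Among stress genes it was higher in TRIB3 (0.53), HMOX1 (0.43) and NQO1 (0.24) and lower in HSPA5 (-0.70) and ASNS (-0.21). Among liver and metabolic genes it was higher in CYP1A1 (1.02), PFKFB3 (0.81) and IGFBP1 (0.75) and lower in ALB (-0.78), AFP (-0.62) and HMGCS1 (-0.46). In all, 21 of the 28 tested panel genes differed from Paeonia, where 20.7% of all genes had a higher and 21% a lower change.

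The other large differences from Paeonia were CAPN3, a calcium-dependent protease (3.67), HBA1 (3.07), AMPD3 (2.38), TNS1 (2.38) and AQP3 (2.34) on the higher side, and SLC6A14, an amino acid transporter (-2.77), FILIP1L (-2.47) and NUCB2, a calcium-binding protein (-2.26), on the lower. Against Cinnamon the largest were TNS1 (4.10), AQP3 (3.97), IGFBP1 (3.73), FOS (3.39) and TM4SF19 (3.38) on the higher side and FAM111B (-3.87), E2F8 (-2.97), SCN1A (-2.92), MT1G (-2.89) and KIF15 (-2.80) on the lower.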

How the results depend on the processing

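Of 2786 values of 186 genes named in the text or by the rule, under 15 alternatives, 2757 kept direction and side of the threshold; 14 lost the call, in GPNMB (8 times), TFEB (2 times), HMGCS1, PMVK, NDUFA13 and MT-CYB. Of the 6 genes not called, DDIT3, CDT1, KDM3A, MDM2 and PTTG1 gained a call under 9 of the values, and 6 values changed sign: CDT1 (-0.29, called) and MDM2 (0.14) under the offset for GC content and length, KDM3A (-0.006) without replicate 1 at 100 µg/mL (-0.006 to 0.199 over the libraries left out), and KLF10 with the 6 libraries (-0.007), the 9 Astragalus libraries (-0.001) and without replicate 3 at 500 µg/mL (-0.046, and -0.046 to 0.082 over the libraries left out). Under the offset for GC content and length, 23 of the lysosomal hydrolases and 6 of the mitogenic genes rose, in place of 35 and 10; the cause was not tested. With DESeq2 9699 of the 10211 called genes and with the 6 libraries alone 8827 were called in the same direction. Leaving out each of the 6 libraries in turn, and for the differences also each Astragalus library at 20 µg/mL, Paeonia library or Cinnamon library of the other step (added after seeing the data), gave 4917 to 5251 genes higher and 4487 to 4884 lower, 1096 to 1200 higher and 970 to 1446 lower by 2-fold or more, 2948 to 3642 and 2869 to 3512 for the step difference, 2625 to 3620 and 3007 to 3684 against Paeonia, 4129 to 4589 and 3948 to 4322 against Cinnamon, and 4.80 to 7.29 percentage points of mitochondrial share. With a replicate block 5419 genes rose and 4882 fell, and no call of a named gene was lost. The libraries share only a number: equal numbers correlated at 0.155, 0.0912 and 0.149 and other pairs at -0.132 to -0.0098. Deviations were taken from the mean of each dose, so positive values at equal numbers force negative ones among the other pairs. The negative values are therefore no separate evidence. That each library correlated best with its own number is a weak hint from the data and not the design. Having 3 libraries a dose limits the precision, and genes under about 1 CPM rest on few counts.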
